A study of Mus musculus with 54 samples.

Results

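The signal transducer Stat3, the IL6-family receptor chains Osmr, Lifr and Il6st, the feedback inhibitor Socs3 and the C/EBP factors Cebpb and Cebpd were followed through a reproductive cycle of the mouse mammary gland. The members were all probe sets whose annotation gave exactly 1 symbol among these 7 genes, so no probe set of a gene was picked by its signal. The genes themselves were chosen with earlier results of these data known. The 7 genes are among 8251 that the table measures by a probe set with 1 symbol. There were 14 member probe sets among 12488 in the table: 5 for Lifr, 2 each for Stat3, Il6st and Socs3, and 1 each for Osmr, Cebpb and Cebpd. A probe set is a group of short probes on the array that together report 1 transcript, and 0 probe sets named a member beside other symbols. Of the 14, 12 passed the filter on dim probe sets, which asked for a signal above 22.8 in each of the 3 mice of some time point. The Lifr probe sets 104657_at and 97006_s_at did not pass, with signals of at most 33.1 and 34.3 on any array, and were not tested. Socs3 92232_at and Lifr 104659_g_at passed in 6 of the 18 time points, so the filter kept them for the time points where they were bright.

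Cytokines of the IL6 family bind receptors built around the shared chain gp130, the product of Il6st, which pairs with the LIF receptor chain (Lifr) or the oncostatin M receptor chain (Osmr). The receptors activate JAK kinases, which phosphorylate STAT3, and STAT3 then turns on its target genes, among them Socs3, whose protein blocks receptors of this family. In the mammary gland, milk stasis after weaning is known to raise leukaemia inhibitory factor and to activate STAT3 in the epithelium, where STAT3 and C/EBP factors take part in cell death and in the remodelling called involution.

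RNA of single glands was hybridised to 1-channel Affymetrix arrays, 54 arrays in all with 1 mouse each. There were 3 mice, named A, B and C, at each of 18 time points: virgin females of 6, 10 and 12 weeks, days 1, 2, 3, 8.5, 12.5, 14.5 and 17.5 of pregnancy, days 1, 3 and 7 of lactation, and days 1, 2, 3, 4 and 20 of forced involution. The mice carried no stated treatment beyond breeding, were mated at 12 weeks, and involution was forced by taking the litters away after 7 days of nursing. The tissue was the whole inguinal gland without its lymph node, so each value mixes epithelium, fat, stroma and blood cells, and fewer cells of a type cannot be told apart from less RNA per cell. The labels name no strain or genotype.

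The values are MAS5 signals on a linear scale. Between 20.5% and 29.7% of an array's probe sets lay under a signal of 9.4, which was used as a floor before taking log2. Arrays of a time point correlated at r of 0.875 to 0.975 over the 8640 tested probe sets. Markers of the labelled tissue were present in part: 10 of 10 luminal and 5 of 8 basal epithelial genes of the marker lists passed the filter. The basal genes Krt5 and Krt14 had a probe set that did not pass, and Oxtr had no probe set. Lactation day 7 mouse A stood apart from the other two mice of its time point for Cebpd, with a signal of 773, against 165 in mouse B and 123 in mouse C. The same array had 3216 for serum amyloid A2 (Saa2), against 836 and 313, so each Cebpd result that uses lactation day 7 is also given without it. The actin ratio, the signal of the control probe set at the 3' end of beta-actin over that at its 5' end, is a sign of RNA quality and ran from 1.09 to 4.15 over all arrays. It was 1.58 to 2.14 at lactation day 7, 1.69 to 2.47 at involution day 1, 1.38 to 1.82 at day 2, 1.36 to 2.27 at day 4 and 1.99 to 3.32 at day 20.

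The 7 genes lie on 5 chromosomes of the GRCm38.p6 build and are protein coding. Stat3 is at chr11:100886806-100939594 and Socs3 at chr11:117966079-117970336. Osmr is at chr15:6813568-6874968 and Lifr at chr15:7090610-7197489. Il6st is at chr13:112464070-112506860, Cebpb at chr2:167688915-167690432 and Cebpd at chr16:15887286-15889545. Promoter windows of 250 bases before to 50 bases after a transcript start were read from RefSeq for 6 of the 7 genes. They were searched on both strands for TTCNNNGAA, the letters that STAT dimers bind, and for TTNNGNAA, a core of C/EBP sites. The windows of Socs3, Stat3 and Osmr are printed 5' to 3' because these genes rose together on the first day of involution. Capitals mark the motif matches, and the Osmr window held none.
Socs3: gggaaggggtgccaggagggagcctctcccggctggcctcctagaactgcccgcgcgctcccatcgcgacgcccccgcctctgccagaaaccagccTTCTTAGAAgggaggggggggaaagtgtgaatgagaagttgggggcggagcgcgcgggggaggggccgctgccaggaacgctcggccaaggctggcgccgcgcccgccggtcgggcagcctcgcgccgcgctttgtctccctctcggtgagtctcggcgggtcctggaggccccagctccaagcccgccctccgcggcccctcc
Stat3: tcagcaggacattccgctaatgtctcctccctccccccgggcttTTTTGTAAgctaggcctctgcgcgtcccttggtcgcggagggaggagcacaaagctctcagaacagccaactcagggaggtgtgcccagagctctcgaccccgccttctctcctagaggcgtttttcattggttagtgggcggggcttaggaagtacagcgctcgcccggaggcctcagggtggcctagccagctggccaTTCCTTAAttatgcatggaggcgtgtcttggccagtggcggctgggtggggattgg
Osmr: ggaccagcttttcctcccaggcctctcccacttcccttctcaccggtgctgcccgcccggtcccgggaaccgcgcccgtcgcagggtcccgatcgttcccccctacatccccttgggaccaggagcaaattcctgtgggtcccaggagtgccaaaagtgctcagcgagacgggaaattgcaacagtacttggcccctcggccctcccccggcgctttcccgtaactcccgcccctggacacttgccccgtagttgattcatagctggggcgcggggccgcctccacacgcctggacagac
The Socs3 window is chr11:117969317-117969616 on the minus strand, and its 1 match, TTCTTAGAA, begins 154 bases before the start (position -154). The Stat3 window is chr11:100939491-100939790 on the minus strand, with the C/EBP-type matches TTTTGTAA at position -206 and TTCCTTAA at position -6. The Osmr window is chr15:6874264-6874563 on the minus strand. The windows of Il6st, Cebpb and both starts of Lifr held neither motif. Of all 32851 windows of this length, 8.30% held TTCNNNGAA and 40.7% held TTNNGNAA. These matches are descriptions of letters in a window, and binding was not measured.

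Over the 18 time points, Osmr, Stat3, Socs3, Cebpb and Cebpd had their highest means in the first 4 days of involution, and the brightest probe sets of Il6st and Lifr had theirs in virgins. Osmr, which pairs with gp130 to bind oncostatin M, was lowest at lactation day 7 with a mean signal of 21.2 and highest at involution day 3 with 366, a 17.3-fold range. Il6st 94345_at was also lowest at lactation day 7, with 69.8, but highest in virgins of 10 weeks, with 383. The other Il6st probe set, 98349_at, was highest at involution day 3, with 98.2, and lowest at pregnancy day 8.5, with 20.7. Stat3 99099_at ran from 177 in virgins of 6 weeks to 786 at involution day 3. Its 4 highest means were those of involution days 3, 1, 2 and 4, and the mice of day 4 lay above those of lactation day 1, the next time point in the order. Cebpd was highest at involution day 1 (1453) and lowest at lactation day 3 (129), and Cebpb was highest at involution day 2 (1060) and lowest in virgins of 6 weeks (170.5). Socs3 162206_f_at was highest at involution day 4 (104) and under the floor in all 3 mice of lactation day 7.

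Most neighbours in these orders were not separated. Of the 17 neighbour pairs of time points in each order, the mice of 1 pair were apart for Stat3, of 2 pairs for Osmr, Il6st, Socs3, Cebpb and Cebpd, and of 0 pairs for the brightest Lifr probe set, 103697_at. In an F test over the 18 time points from the limma fit, 12 of 12 tested member probe sets changed, as did 88.1% of all tested probe sets, so this count is close to the background.

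**Figure D1:**
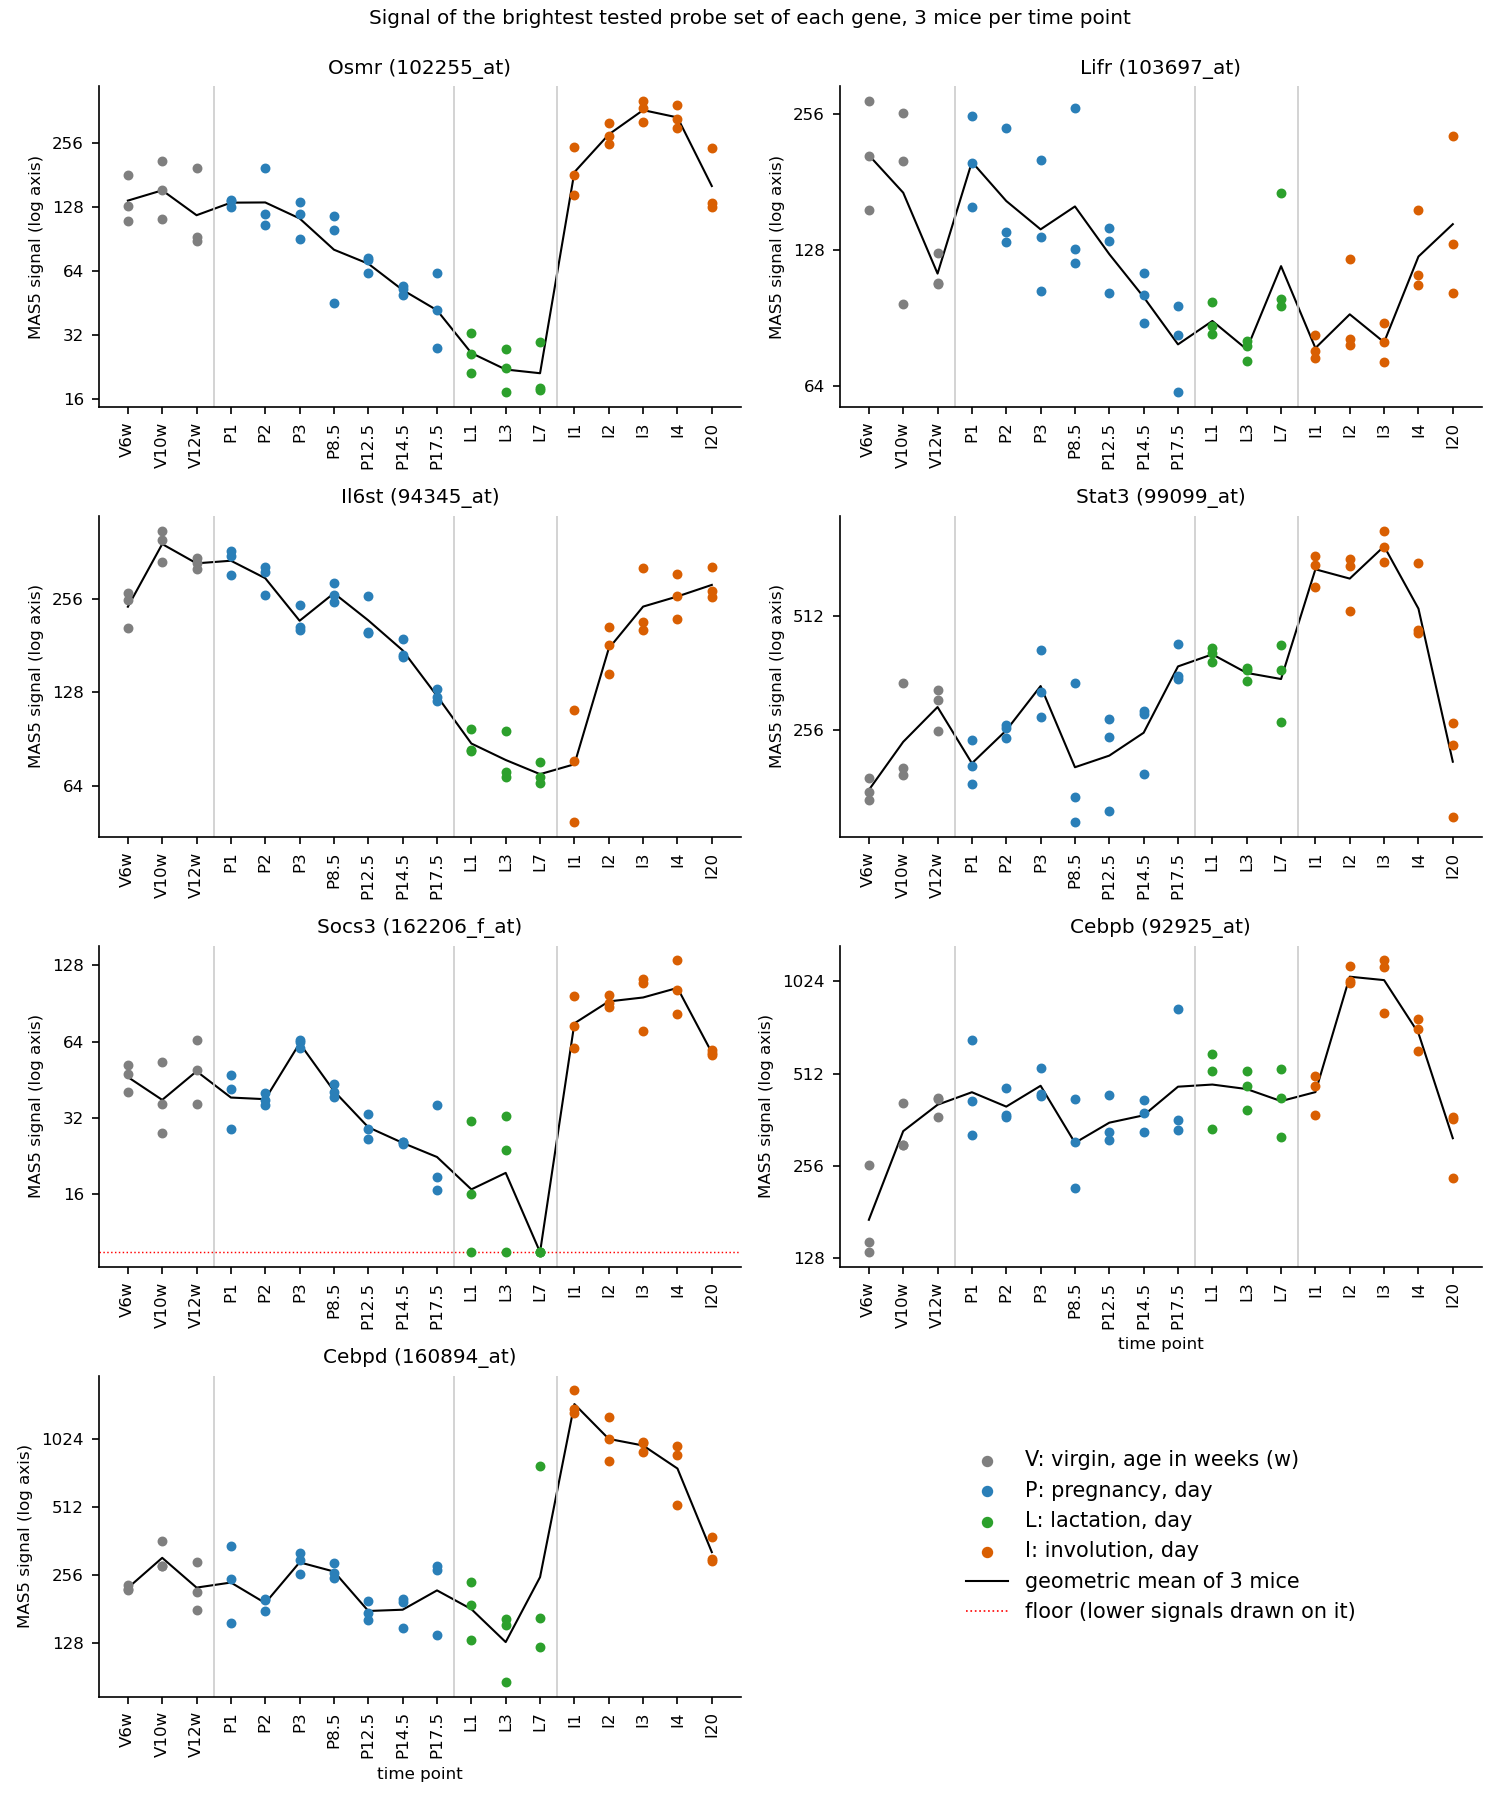
Signal of the brightest tested probe set of each of the 7 genes (y axis, MAS5 signal on a log axis) at the 18 time points (x axis, V virgin weeks, P pregnancy, L lactation and I involution days). Points are mice and the line is the geometric mean of 3: Osmr and Il6st sink to lactation day 7, and Osmr, Stat3, Socs3 and Cebpd step up at involution day 1 while Il6st and Cebpb step up at day 2.

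The first comparison asked what happens within a day of losing the litter. On involution day 1, Osmr, Socs3, Cebpd and Stat3 were higher than on lactation day 7, while Il6st and Cebpb were not called. The oncostatin M receptor chain Osmr had signals of 246, 182 and 146 at involution day 1, against 29.7, 18.0 and 17.7 at lactation day 7. The lowest involution mouse was above the highest lactation mouse, and the mean was 8.84 times higher (log2 difference 3.14 ± 0.32, adjusted p = 1.8e-10). All differences here are from a limma fit of the 54 arrays, with Benjamini-Hochberg adjustment over 8640 probe sets and a call at an adjusted p under 0.05. Stat3 99099_at gave 614, 741 and 699.7 at involution day 1, against 431, 368 and 267 at lactation day 7. The groups did not overlap, and the mean was 1.96 times higher (0.97 ± 0.24, adjusted p = 0.0022). The other Stat3 probe set, 99100_at, gave 1.03 ± 0.17, adjusted p = 9.9e-06.

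Socs3, the brake on these receptors, had signals of 60.4, 96.7 and 73.8 in probe set 162206_f_at at involution day 1, against 5.4, 2.9 and 3.9 at lactation day 7. The lactation signals were all under the floor, so the rise was at least 8.04-fold (adjusted p = 2e-09). Probe set 92232_at gave 76.2, 106 and 93.6 at involution day 1, against 6.4, 10.0 and 16.9 at lactation day 7, again with no overlap (2.96 ± 0.45, adjusted p = 1.9e-06). Cebpd, a C/EBP factor that STAT3 is known to induce in mammary epithelial cells, had 1389, 1323 and 1671 at involution day 1, against 773, 165 and 123 at lactation day 7. Its lowest involution mouse was above even the high lactation mouse A (2.54 ± 0.35, adjusted p = 3.4e-07), and without mouse A the difference was 3.35 (adjusted p = 4.6e-12). Cebpb, a C/EBP factor needed for milk cell differentiation, gave 467, 376 and 503 at involution day 1, against 427, 531 and 318 at lactation day 7, and these groups overlapped (0.10 ± 0.28, adjusted p = 0.85, 95% interval -0.46 to 0.66).

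Il6st, which encodes gp130, had 112, 48.9 and 77.1 in probe set 94345_at at involution day 1, against 68.5, 76.1 and 65.2 at lactation day 7. The involution mice lay on both sides of the lactation mice (0.11 ± 0.19, adjusted p = 0.75, 95% interval -0.29 to 0.50). Lifr 104658_at gave 61.3, 61.4 and 59.7 at involution day 1, against 152, 97.0 and 82.1 at lactation day 7, a fall with no overlap (-0.81 ± 0.25, adjusted p = 0.014). Without lactation mouse A this call was lost (-0.55, adjusted p = 0.14). Lifr 104659_g_at fell further, to 21.1, 23.1 and 33.0 at involution day 1, against 73.0, 67.7 and 67.9 at lactation day 7 (-1.46 ± 0.35, adjusted p = 0.0015). Lifr 103697_at was not called (-0.60 ± 0.31, adjusted p = 0.15), although its mice did not overlap either.

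Of the 12 tested member probe sets, 6 were called higher and 2 lower at involution day 1. Over all tested probe sets 25.4% were called, 14.1% higher and 11.3% lower, and the median log2 difference was 0.54 for the members and -0.02 for all. These counts describe the probe sets that passed the filter and carry no test.

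**Figure D2:**
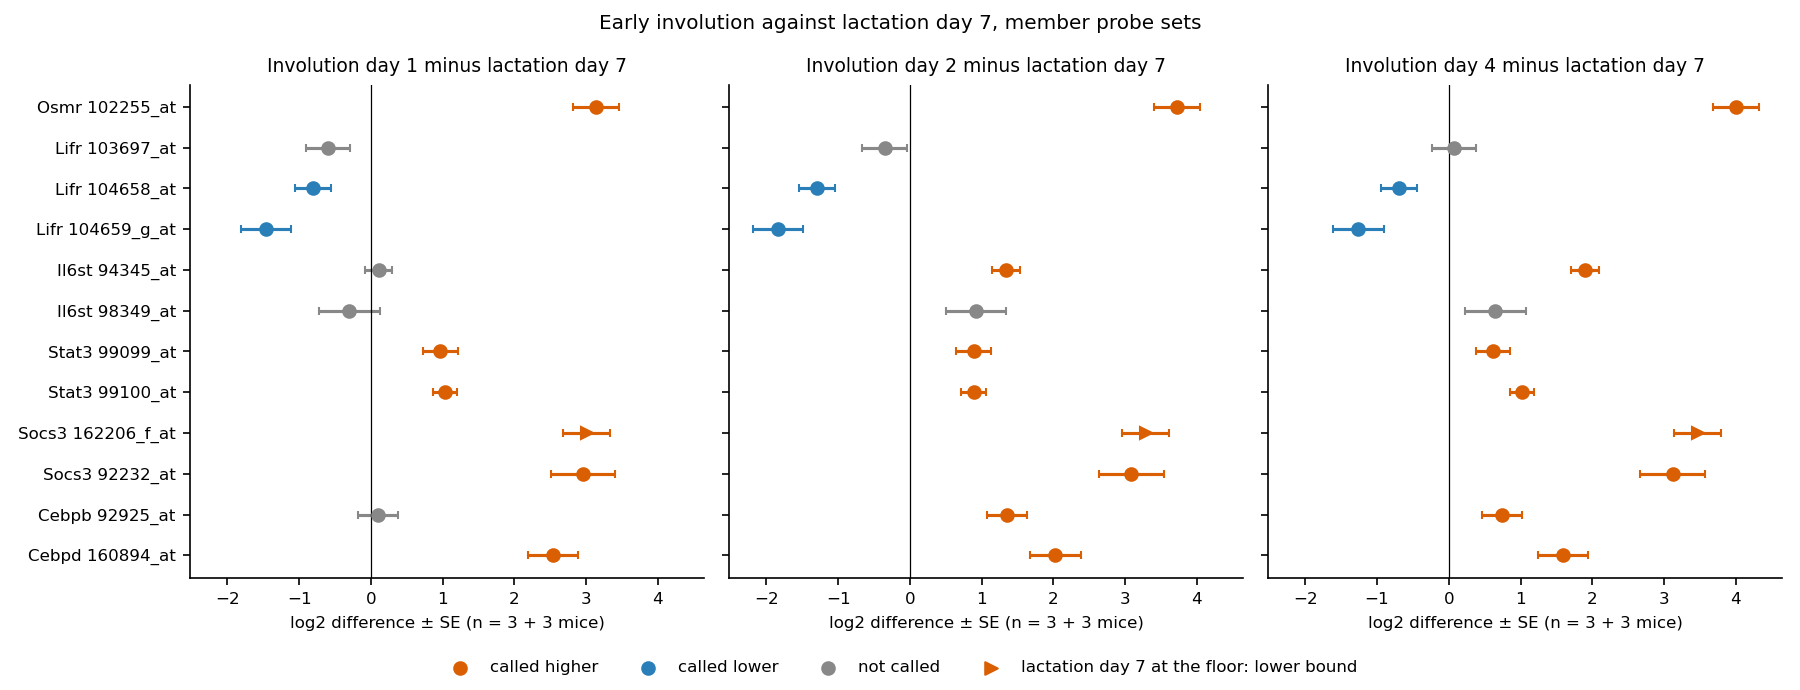
Log2 difference of involution days 1, 2 and 4 minus lactation day 7 (x axis) for the 12 tested probe sets (y axis), with standard errors and 3 + 3 mice per difference. Osmr lies at 3.14, 3.73 and 4.00, while Il6st 94345_at lies at 0.11, 1.34 and 1.90 and Cebpb at 0.10, 1.35 and 0.74; all 3 panels share the lactation day 7 mice.

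The comparisons of involution days 1, 2 and 4 share the mice of lactation day 7, so their differences are not independent. On involution day 2 the genes that had risen stayed above lactation day 7, and Il6st 94345_at and Cebpb were now higher as well. Cebpb had 1009.9, 1027 and 1148 at involution day 2, against 427, 531 and 318 at lactation day 7 (1.35 ± 0.28, adjusted p = 0.00018). All 3 involution mice were above every lactation mouse. Il6st 94345_at had 208, 182 and 147 at involution day 2, against 68.5, 76.1 and 65.2 at lactation day 7, also with no overlap (1.34 ± 0.19, adjusted p = 6.8e-07). Its other probe set, 98349_at, gave 121, 81.7 and 74.2 at involution day 2, against 57.0, 38.2 and 49.6 at lactation day 7, and was not called (0.92 ± 0.42, adjusted p = 0.088). Osmr stood at 276, 318 and 253 on involution day 2 (3.73 ± 0.32, adjusted p = 1.8e-12 against lactation day 7). Socs3 162206_f_at stood at 98.1, 91.3 and 87.6, at least 9.81 times the lactation level (adjusted p = 2.1e-10).

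Cebpd had 817, 1021 and 1269.8 at involution day 2 (2.03 ± 0.35, adjusted p = 1.8e-05 against lactation day 7). In a fit of only these 6 arrays the Cebpd call was lost (adjusted p = 0.064), and without lactation mouse A of the full fit the difference was 2.84 (adjusted p = 3.4e-10). Stat3 99099_at was higher by 0.89 ± 0.24, adjusted p = 0.0042. Lifr 104658_at fell to 40.1, 40.6 and 49.3 at involution day 2 (-1.30 ± 0.25, adjusted p = 8e-05) and Lifr 104659_g_at to 16.2, 16.6 and 27.0 (-1.84 ± 0.35, adjusted p = 6.4e-05), each below every lactation mouse. In all, 8 members were called higher and 2 lower, where 31.9% of all tested probe sets were called, 17.2% higher and 14.7% lower.

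Set directly against involution day 1, a comparison added after the values were seen, day 2 was higher for 2 of the 12 member probe sets, where 4.50% of all tested probe sets were called higher and 7.64% in either direction. Cebpb at involution day 2 exceeded every mouse of involution day 1 (1.25 ± 0.28, adjusted p = 0.0031). Il6st 94345_at at day 2 also exceeded every mouse of day 1 (1.24 ± 0.19, adjusted p = 4.9e-05), although that call was lost in a fit of only these 6 arrays (adjusted p = 0.09). For Osmr, the difference between days 2 and 1 was 0.59 ± 0.32, adjusted p = 0.29.

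On involution day 4 Osmr, Il6st 94345_at, Socs3 and both C/EBP factors were above lactation day 7. Osmr reached 406, 323 and 375 at involution day 3 and 300, 332 and 388 at day 4, and the day 4 mean was 16.0 times that of lactation day 7 (4.00 ± 0.32, adjusted p = 1.2e-13). Il6st 94345_at reached 307, 219.8 and 260.5 at involution day 4 (1.90 ± 0.19, adjusted p = 1.4e-10 against lactation day 7). Il6st 98349_at had 128, 38.4 and 85.9 at involution day 4, against 57.0, 38.2 and 49.6 at lactation day 7, and these groups overlapped without a call (0.65 ± 0.42, adjusted p = 0.21). Cebpd had 523, 869 and 947 at involution day 4, and its lowest mouse was below lactation mouse A (1.59 ± 0.35, adjusted p = 0.0003). The Cebpd call was lost in a fit of only these 6 arrays (adjusted p = 0.092), and the difference was 2.41 without lactation mouse A (adjusted p = 7.8e-09). Cebpb had 806, 1143 and 1198 at involution day 3 and 608, 769 and 714 at day 4 (0.74 ± 0.28, adjusted p = 0.027 against lactation day 7), and that call was lost without lactation mouse C (0.54, adjusted p = 0.16) and without lactation mouse A or day 4 mouse B or C.

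Stat3 99099_at had 716, 784 and 866 at involution day 3 and 472, 463 and 709 at day 4. The day 4 mice A and B were close to lactation mouse A, and the call (0.62 ± 0.24, adjusted p = 0.034) was lost without involution mouse C (0.42, adjusted p = 0.21) or lactation mouse C (0.43, adjusted p = 0.20), and without lactation mouse B (adjusted p = 0.052). Stat3 99100_at was higher by 1.02 ± 0.17, adjusted p = 5e-06. Socs3 162206_f_at had 82.6, 134 and 103 at involution day 4, at least 11.1 times the lactation level (adjusted p = 2.1e-11). Lifr 104658_at (-0.70 ± 0.25, adjusted p = 0.022) and 104659_g_at (-1.26 ± 0.35, adjusted p = 0.0033) were lower than at lactation day 7. The 104658_at call was lost without lactation mouse A (-0.44, adjusted p = 0.20) and without day 4 mouse A or C. At day 4, 8 members were called higher and 2 lower, where 44.4% of all tested probe sets were called, 22.7% higher and 21.7% lower.

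Between involution days 4 and 1 the gene of gp130 had the lowest adjusted p of the members. Il6st 94345_at had 307, 219.8 and 260.5 at involution day 4, against 112, 48.9 and 77.1 at involution day 1, with no overlap (1.79 ± 0.19, adjusted p = 2.7e-09). Osmr gave 0.86 ± 0.32, adjusted p = 0.043, a call lost without any of the 6 arrays but day 1 mouse A, with an adjusted p of up to 0.19 (without day 1 mouse C). Cebpd gave -0.94 ± 0.35, adjusted p = 0.046, a call lost without any of the 6 arrays but day 4 mouse C, with an adjusted p of up to 0.25 (without day 4 mouse A). Of the 12 members 2 were called higher and 1 lower, where 24.2% of all tested probe sets were called, 13.0% higher and 11.2% lower, so the count is close to the background.

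Markers of other cell types moved with part of these changes. The summed signal of 7 white adipocyte genes was 1560 to 2000 at involution day 1, against 1560 to 1890 at lactation day 7. That of 10 macrophage genes was 1210 to 1300 at involution day 1, against 1380 to 1530 at lactation day 7, and that of 8 endothelial genes 557 to 779 against 634 to 767. Within the macrophage list 1 gene was called higher and 1 lower, with a list median of 0.27, so its sum does not speak for each gene. Cd68 had 222, 178 and 154 at involution day 1, against 65.3, 76.6 and 74.0 at lactation day 7 (1.35 ± 0.31, adjusted p = 0.00097), and C1qa had 164, 303 and 266 at involution day 1, against 690.4, 479 and 472 at lactation day 7 (-1.19 ± 0.42, adjusted p = 0.03). At involution day 1 those 3 sums overlapped with or lay below their range at lactation day 7. Osmr, Socs3 and Cebpd lay above theirs, as did the luminal and neutrophil sums that follow. The sum of 7 fibroblast genes was 2100 to 3610 at involution day 1, against 1700 to 2390 at lactation day 7. That of 10 luminal epithelial genes was 5110 to 6910, against 3690 to 3840. In these lists 4 of 7 fibroblast and 6 of 10 luminal genes were called higher and 0 lower, with medians of 0.93 and 1.16. Over all tested probe sets 14.1% were called higher. Of 11 neutrophil markers, 5 passed the filter with a sum of 7070 to 7920 at involution day 1, against 3830 to 4030 at lactation day 7. The brightest of the 5 was lactoferrin (Ltf), a protein that milk cells also make, with 6781, 7524 and 7032 at involution day 1, against 3706, 3583 and 3433 at lactation day 7. The other 4, Csf3r, Elane, Camp and S100a8, were measured in both groups and not called, for example Csf3r with 127, 186 and 167 at involution day 1, against 155, 176 and 145 at lactation day 7. Of all 11, 2 (Ngp and Mmp8) were under the floor in all 3 mice of involution day 1.

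From day 2 on, the adipocyte, fibroblast, macrophage and endothelial sums lay above their ranges at lactation day 7, as did the brightest Il6st probe set and Osmr. Not all of this began at day 2: Osmr and 4 of 7 fibroblast genes were already called higher at involution day 1. At involution day 4 the adipocyte sum was 5900 to 7860, the fibroblast sum 7870 to 11100, the macrophage sum 6580 to 9260 and the endothelial sum 1190 to 1940. At day 2 the adipocyte sum was 3180 to 4110 and the fibroblast sum 4370 to 6770. The part of these sums, and of the luminal, fibroblast and neutrophil sums at day 1, in the member results was not tested.

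**Figure D3:**
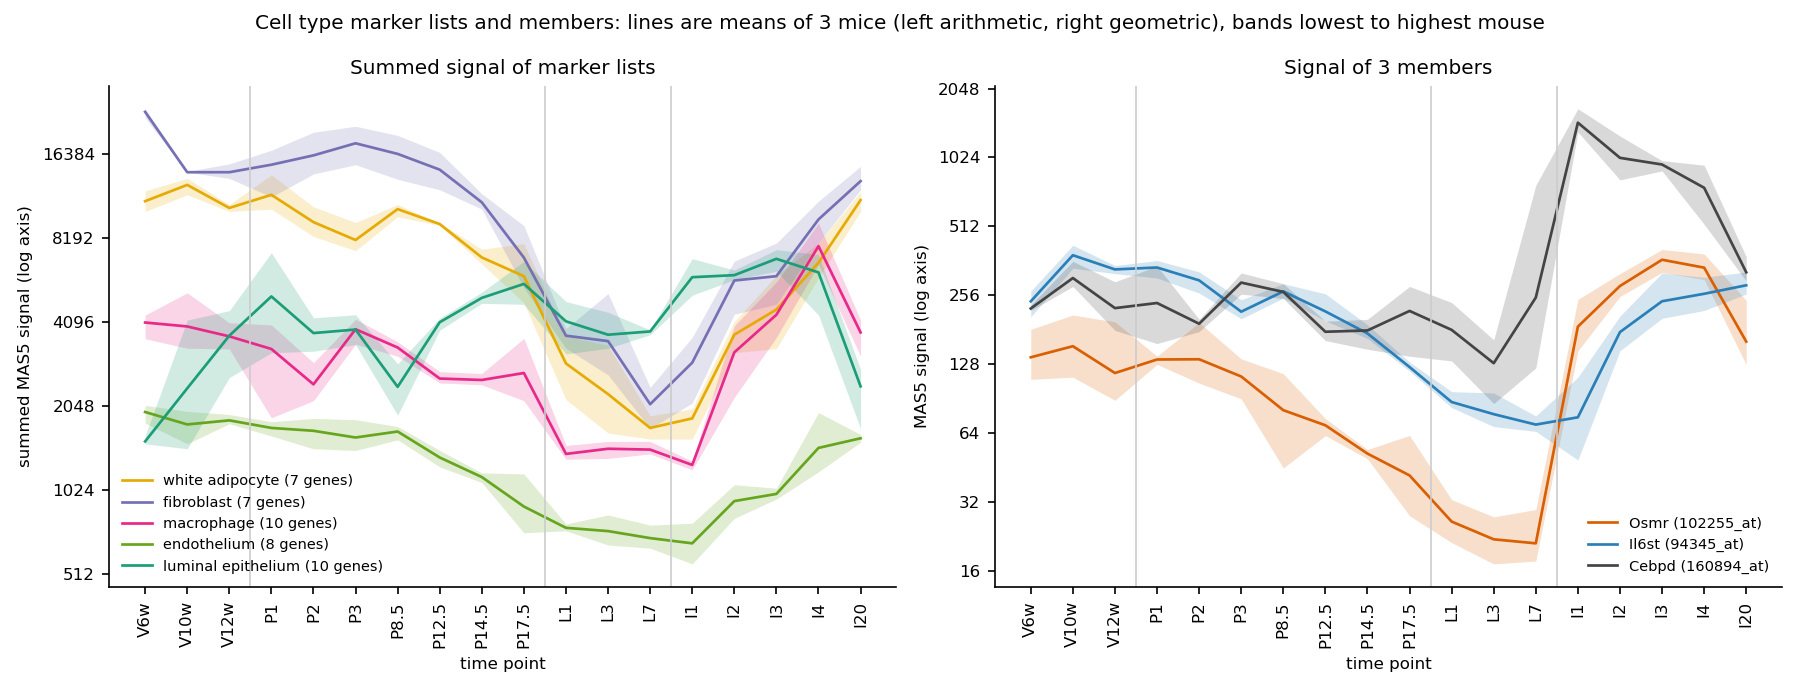
Left, summed MAS5 signal of marker lists for 5 cell types (log axis) at the 18 time points, and right, the signal of Osmr, Il6st and Cebpd (log axis). Lines are means of 3 mice and bands run from the lowest to the highest mouse. At involution day 1 Osmr and Cebpd are above lactation day 7, as is the luminal sum (5110 to 6910, against 3690 to 3840). The fibroblast sum has a higher mean (2930, against 2080) with overlap. The adipocyte, macrophage and endothelial sums overlap with or lie below lactation day 7. Il6st turns up with the adipocyte, macrophage and endothelial sums at day 2.

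The comparison of involution day 20 with day 4 asked which members came down once remodelling was over. Stat3, Cebpb, Cebpd and Osmr fell, and Il6st 94345_at was not called. Stat3 99099_at had 150.2, 266 and 232 at involution day 20, against 472, 463 and 709 at involution day 4 (-1.35 ± 0.24, adjusted p = 0.0001). Stat3 99100_at had 145, 186 and 176 at day 20, against 339.9, 415 and 452 at day 4, and neither probe set overlapped between the days (-1.25 ± 0.17, adjusted p = 1.3e-06). Cebpb had 233, 369 and 363 at day 20, against 608, 769 and 714 at day 4 (-1.14 ± 0.28, adjusted p = 0.0033). All its day 20 mice were below the day 4 mice, and the adjusted p was 0.052 without day 20 mouse A. Cebpd had 377, 301 and 296 at day 20, against 523, 869 and 947 at day 4 (-1.23 ± 0.35, adjusted p = 0.014), and was not called without day 4 mouse C (adjusted p = 0.09) or B (adjusted p = 0.052).

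Osmr had 243, 128 and 134 at day 20, against 300, 332 and 388 at day 4 (-1.07 ± 0.32, adjusted p = 0.016). The call was lost without day 4 mouse C (adjusted p = 0.084) and without day 20 mouse B or C. Socs3 162206_f_at had 57.6, 59.2 and 56.8 at day 20, against 82.6, 134 and 103 at day 4, and was not called although its mice did not overlap (-0.85 ± 0.33, adjusted p = 0.076). Socs3 92232_at had 3.8, 58.9 and 32.6 at day 20, against 114, 72.2 and 126 at day 4. Its call (-1.95 ± 0.45, adjusted p = 0.0021) was lost without day 20 mouse A (-1.21, adjusted p = 0.087), the array with the highest actin ratio of the 6, 3.32. Il6st 94345_at had 324, 259.5 and 270.1 at day 20, against 307, 219.8 and 260.5 at day 4 (0.12 ± 0.19, adjusted p = 0.74), while the adipocyte sum was 10200 to 12000 at day 20.

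Of the 12 tested member probe sets 7 were called lower at day 20 and 0 higher, where 15.5% of all tested probe sets were called, 8.54% lower and 6.99% higher. In a fit of only these 6 arrays the count was 4, and the lost calls were Osmr (adjusted p = 0.074), Socs3 92232_at (adjusted p = 0.13) and Il6st 98349_at (adjusted p = 0.15). Without day 20 mouse A the member count was 4, and without day 4 mouse C it was 4 as well. In each of these fits fewer of all tested probe sets were called too, so the share of 15.5% is not their background. The totals for such fits are given in the closing section. The sum of 10 luminal genes was 1700 to 2770 at day 20, against 4340 to 7150 at day 4, and the macrophage sum was 3090 to 4160, against 6580 to 9260, and their part in these falls was not tested. Against virgins of 12 weeks, 0 of 12 members were called at involution day 20 by limma, where 2.64% of all tested probe sets were, 1.27% higher and 1.37% lower. At an unadjusted p under 0.05 there were 1438 of all probe sets and 1 member, Stat3 99100_at, with 145, 186 and 176 at involution day 20, against 210.1, 205 and 257 in virgins of 12 weeks (-0.41 ± 0.17, adjusted p = 0.21). The intervals remained wide, for Osmr -0.18 to 1.10 and for Cebpd -0.19 to 1.23 on the log2 scale.

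During pregnancy and lactation Osmr and Il6st 94345_at fell, while the Lifr probe sets did not move alike. By pregnancy day 14.5 Osmr had 49.5, 52.7 and 54.3, against 92.2, 89.1 and 196 in virgins of 12 weeks (-1.17 ± 0.32, adjusted p = 0.0079). The pregnant mice were all below the virgins, but virgin mouse C was high and the call was lost without it (-0.80, adjusted p = 0.10). Il6st 94345_at had 166, 168 and 190.4 at pregnancy day 14.5, against 346, 333 and 318 in virgins of 12 weeks (-0.93 ± 0.19, adjusted p = 0.00068), a fall with no overlap. Socs3 92232_at was under the floor in all mice of pregnancy day 14.5, against 27.7, 30.6 and 61.2 in virgins of 12 weeks, at least 3.97-fold lower (adjusted p = 0.0016). Socs3 162206_f_at gave -0.94 ± 0.33, adjusted p = 0.043, a call lost under quantile normalization (-0.70, adjusted p = 0.15), with median scaling (-0.75, adjusted p = 0.12) and without any of the 6 arrays but virgin mouse A. Stat3 (-0.23 ± 0.24, adjusted p = 0.55) and Cebpb (-0.11 ± 0.28, adjusted p = 0.82) were not called. In all 4 members were called lower and 0 higher, where 8.85% of all tested probe sets were called lower, 8.82% higher and 17.7% either way. The adipocyte sum was 6620 to 7470 at pregnancy day 14.5, against 10200 to 10800 in virgins of 12 weeks. The endothelial sum was 1090 to 1180 at pregnancy day 14.5, against 1770 to 1910 in virgins, with 5 of 8 genes called lower. The sum of 5 B and plasma cell genes was 150 to 224, against 390 to 544, and that of 4 T cell genes 38.0 to 63.9, against 165 to 285, with 2 genes of each list called lower. The sum of 5 basal epithelial genes was 2800 to 3240 at pregnancy day 14.5, against 1010 to 1280 in virgins, with 4 called higher. The part of these lists in the falls was not tested. The actin ratio was 2.11 to 3.30 at pregnancy day 14.5, against 1.43 to 2.35 in virgins of 12 weeks, and with it as a covariate the 4 members kept their calls.

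Scaling each array to the same median moved the median of all probe sets by 0.18 at pregnancy day 14.5, by 0.14 between involution day 20 and virgin week 12, and by 0.11 between involution days 20 and 4. At pregnancy day 14.5 it turned 762 higher and 765 lower calls over all probe sets into 1153 higher and 450 lower. Between involution days 20 and 4 the split went to 738 higher and 568 lower, with 604 higher and 738 lower before, and against virgin week 12 to 142 and 74, with 110 and 118 before. Of the 52 member calls in all comparisons, median scaling kept the signs, lost 4 and added 1. The lost calls were Osmr for involution day 4 against day 1 (0.81, adjusted p = 0.08) and for day 20 against day 4 (-0.96, adjusted p = 0.051), Lifr 104658_at at lactation day 1 (0.73, adjusted p = 0.051) and Socs3 162206_f_at at pregnancy day 14.5. The added call was a fall of Il6st 94345_at at lactation day 1 (-0.59, adjusted p = 0.041).

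Both Socs3 probe sets also showed a step at pregnancy day 3, which had no planned comparison. Probe set 162206_f_at had 37.6, 40.1 and 36.0 at pregnancy day 2, 65.2, 63.5 and 60.4 at day 3 and 40.6, 38.5 and 43.4 at day 8.5. Probe set 92232_at had 7.0, 9.5 and 8.2 at pregnancy day 2, 46.7, 56.4 and 37.2 at day 3 and 10.9, 23.7 and 13.7 at day 8.5. In both, every mouse of day 3 was above every mouse of days 2 and 8.5. The step is given as a description and was not tested.

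At the start of lactation 2 of the 3 tested Lifr probe sets were called higher, and the brightest, 103697_at, was not. Lifr 104658_at had 81.4, 96.3 and 113 at lactation day 1, against 62.3, 61.8 and 42.1 at pregnancy day 17.5 (0.82 ± 0.25, adjusted p = 0.016), and Lifr 104659_g_at had 32.4, 61.8 and 71.5, against 25.6, 27.0 and 19.7 (1.13 ± 0.35, adjusted p = 0.016). Neither overlapped. Both calls were lost without pregnancy mouse C (0.63, adjusted p = 0.11, and 0.99, adjusted p = 0.076), without lactation mouse B or C, and in a fit of only these 6 arrays. Lifr 103697_at had 86.6, 83.3 and 97.9 at lactation day 1, against 83.1, 61.9 and 96.0 at pregnancy day 17.5, with overlap (0.17 ± 0.31, adjusted p = 0.73). Il6st 94345_at had 83.4, 82.8 and 97.2 at lactation day 1, against 131, 123 and 119.6 at pregnancy day 17.5, with no overlap and no call (-0.51 ± 0.19, adjusted p = 0.053). With 2 of 12 members called higher and 0 lower, where 10.1% of all tested probe sets were called higher and 23.3% either way, the count is close to the background. Of the marker lists, 6 of 7 adipocyte, 6 of 7 fibroblast and 6 of 10 macrophage genes were called lower at lactation day 1. The adipocyte sum was 2160 to 3640 at lactation day 1, against 4800 to 7820 at pregnancy day 17.5, the fibroblast sum 3300 to 3880, against 5440 to 9070, and the macrophage sum 1320 to 1480, against 2140 to 3580. The part of these lists in the member results was not tested.

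At lactation day 7, Il6st 94345_at, Osmr and Socs3 were lower than in virgins of 12 weeks, and 2 of the Lifr probe sets were higher. Il6st 94345_at had 68.5, 76.1 and 65.2 at lactation day 7, against 346, 333 and 318 in virgins of 12 weeks, 4.76 times lower with no overlap (-2.25 ± 0.19, adjusted p = 7e-13). Osmr had 29.7, 18.0 and 17.7 at lactation day 7, against 92.2, 89.1 and 196 in virgins of 12 weeks (-2.47 ± 0.32, adjusted p = 1.5e-08). Socs3 162206_f_at was at least 5.19-fold lower at lactation day 7 (adjusted p = 1.1e-07). Lifr 104659_g_at went the other way, with 73.0, 67.7 and 67.9 at lactation day 7, against 15.0, 32.9 and 38.5 in virgins of 12 weeks (1.38 ± 0.35, adjusted p = 0.0011). It met the filter level at lactation day 7 and not in virgins of 12 weeks. The brightest Lifr probe set, 103697_at, was not called, with means of 117.8 at lactation day 7 and 113.4 in virgins of 12 weeks. Stat3 (0.25 ± 0.24, adjusted p = 0.41), Cebpb (0.04 ± 0.28, adjusted p = 0.92) and Cebpd (0.15 ± 0.35, adjusted p = 0.74) were not called, and Cebpd gave -0.66 (adjusted p = 0.054) without lactation mouse A.

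In this comparison 6 of 12 members were called, 2 higher and 4 lower, where 51.6% of all tested probe sets were called, 24.3% higher and 27.2% lower, so the count is close to the background. The fibroblast sum was 1700 to 2390 at lactation day 7, against 13400 to 15100 in virgins of 12 weeks, and the adipocyte sum 1560 to 1890, against 10200 to 10800. The endothelial sum was 634 to 767, against 1770 to 1910. The part of these sums in the falls of Il6st and Osmr was not tested.

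Probe sets of the same gene did not always agree, and their levels are not compared with each other. For Stat3 the 2 probe sets followed each other over the 18 time point means (r = 0.88), and for Socs3 likewise (r = 0.82). For Il6st they did not (r = -0.17). At lactation day 7 against virgin week 12, probe set 94345_at gave -2.25 ± 0.19, adjusted p = 7e-13, while 98349_at gave 0.03 ± 0.42, adjusted p = 0.95. At involution day 20, 98349_at had 32.0, 28.7 and 35.0, against 128, 38.4 and 85.9 at involution day 4. Its call (-1.24 ± 0.42, adjusted p = 0.038) was lost without any of these 6 arrays but day 4 mouse B, at an adjusted p of up to 0.25 (without day 4 mouse A). Lifr 104658_at and 104659_g_at moved together (r = 0.89) and were highest at lactation day 7, but neither followed 103697_at (r = -0.05 and -0.04), which was highest in virgins of 6 weeks. Probe sets with the suffix _g_at or _f_at can share sequence with related transcripts.

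**Figure D4:**
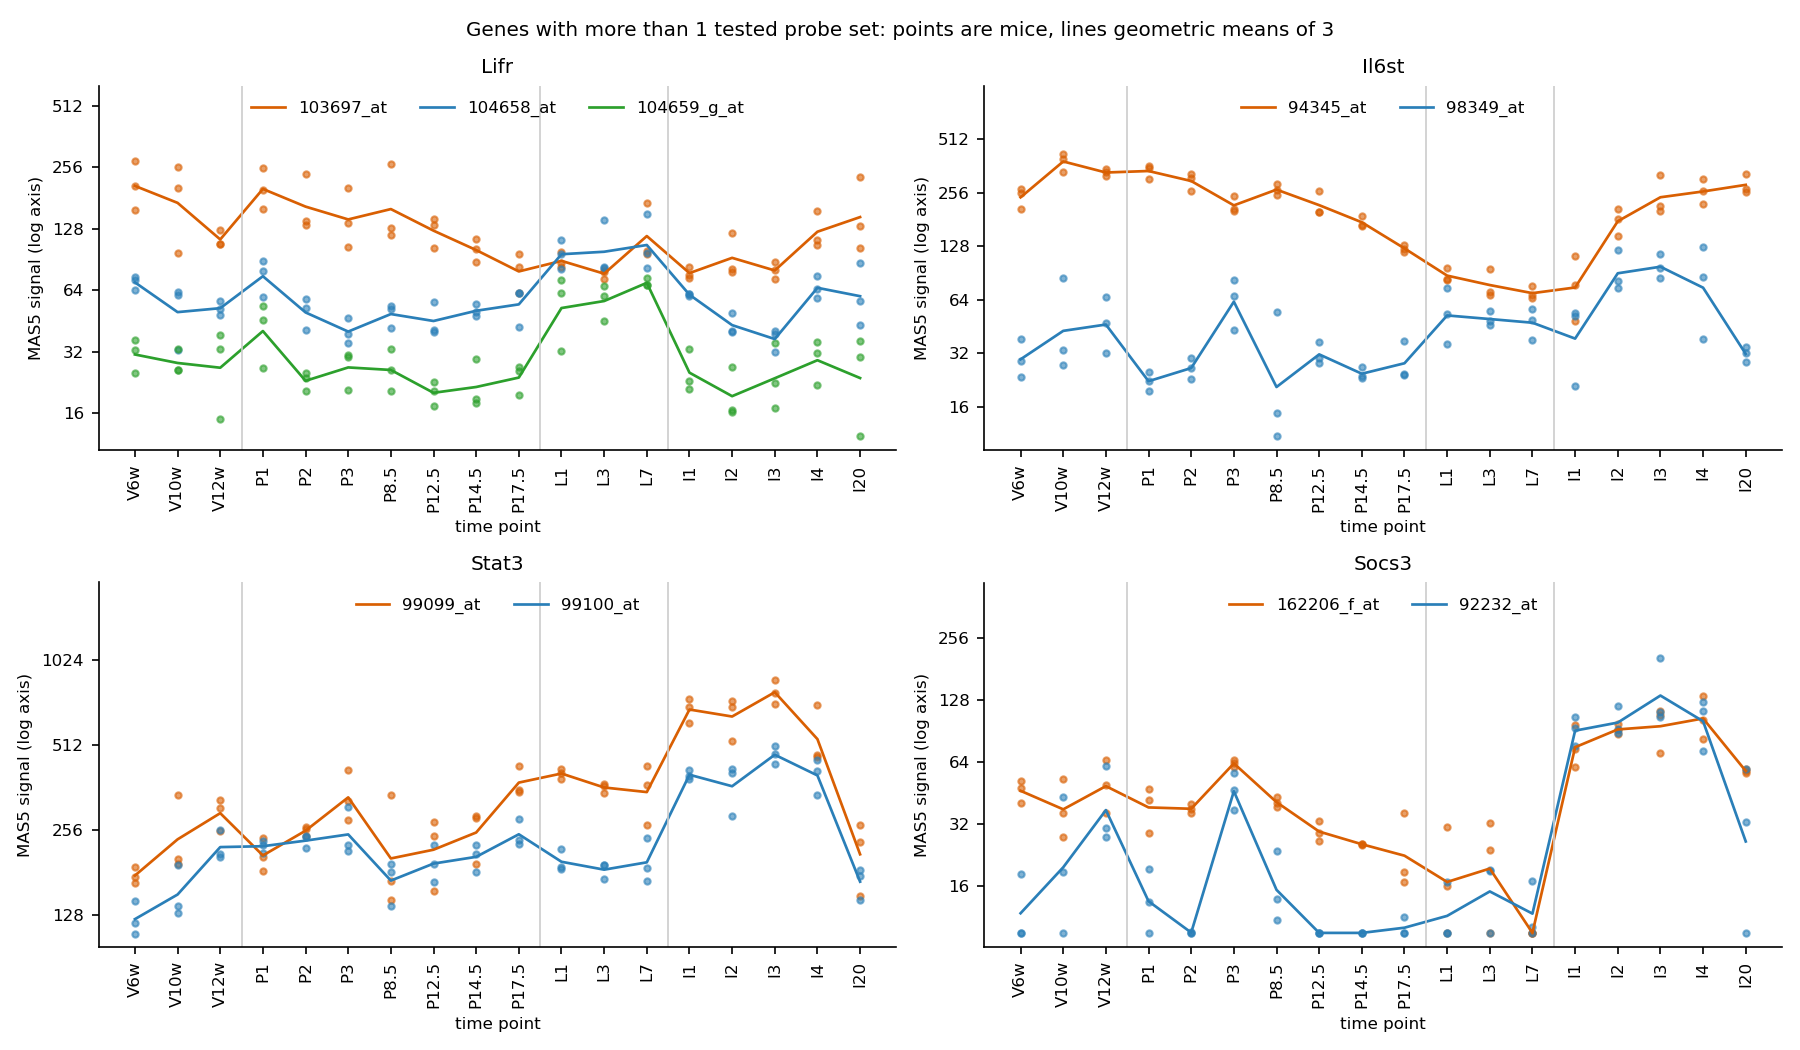
Signal (y axis, MAS5 signal on a log axis) of each tested probe set of Lifr, Il6st, Stat3 and Socs3 at the 18 time points (x axis, V virgin weeks, P pregnancy, L lactation and I involution days). Points are mice, lines are geometric means of 3, and signals under the floor are drawn on it: the Stat3 pair and the Socs3 pair run alongside each other, while Il6st 94345_at and 98349_at, and Lifr 103697_at and the other Lifr probe sets, do not.

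Several probe sets moved with the actin ratio among mice of the same time point. Over the deviations of the 54 arrays from their time point means, r with the log2 actin ratio was -0.73 for Il6st 98349_at, -0.65 for Stat3 99099_at and -0.53 for Socs3 92232_at. It was 0.62 for Lifr 103697_at and 0.58 for Osmr. For Il6st 94345_at (0.11), Socs3 162206_f_at (0.21), Cebpb (0.00) and Cebpd (0.18) it was nearer 0. Over all 8640 tested probe sets the 5th and 95th percentiles of this r were -0.60 and 0.61, and all these values come from the same arrays. One example is pregnancy day 8.5, where mouse B had a ratio of 1.43, against 3.67 in mouse A and 3.94 in mouse C. That mouse had 341 for Stat3 99099_at, against 145 and 169, and 54.4 for Il6st 98349_at, against 11.0 and 14.9. For Osmr it had 45.1, against 100 and 116.

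With the log2 actin ratio as a covariate, the calls at involution day 1 for Osmr, Socs3, Cebpd, Stat3 and the 2 called Lifr probe sets were made again. So were those of day 2 and day 4 against lactation day 7. The fall of Il6st 98349_at at involution day 20 was no longer called (-0.69, adjusted p = 0.17). Lifr 103697_at became called as lower at involution day 1 than at lactation day 7 (-0.72, adjusted p = 0.026). Over the 120 member differences of all comparisons the covariate lost 2 calls and added 3, including these. It changed the sign of 7 differences that were not called in the main fit.

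The genes whose 18 time point means were most like a member's are given by Pearson's r over those means, as a description. For Stat3 they were Ier3 (0.97), an immediate early stress gene, Ltk (0.95) and Retreg2 (0.95). For Osmr they were Shisa5 (0.96), Grn (0.95), which encodes the lysosomal growth factor progranulin, and Basp1 (0.94). Socs3 had the same 3 neighbours, Basp1 (0.95), Shisa5 (0.92) and Grn (0.92). For Cebpd they were the cell cycle inhibitor gene Cdkn1a (0.95), Basp1 (0.95) and the amino acid transporter gene Slc3a2 (0.94). For Il6st they were Ndrg2 (0.98), the lipid droplet gene Cidec (0.97), which is in the adipocyte list, and the matrix gene Tgfbi (0.97). Lifr 103697_at was most like Brip1os (0.94), Rgl1 (0.93) and Ndrg2 (0.93). For Cebpb they were 0.90 for Prkcsh, 0.90 for Klhl21 and 0.89 for the transcription factor gene Runx1. Osmr and Socs3 162206_f_at followed each other at r of 0.95, and Osmr and Socs3 92232_at at 0.73. For Osmr and Stat3 the r was 0.28 with probe set 99099_at and 0.52 with 99100_at.

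Other genes of the pathway were taken from lists. Of 9 ligand genes of the IL6 family 3 had a probe set and 1, Ctf1, passed the filter. Ctf1, the gene of cardiotrophin 1, had 54.9, 80.1 and 70.7 at involution day 1, against 83.8, 67.2 and 82.5 at lactation day 7 (-0.19 ± 0.21, adjusted p = 0.55). Il6 was under the floor on 52 of 54 arrays, and Il11 on 53. The ligand genes Lif and Osm had no probe set with a single symbol in the tables used and were not analysed here.

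Of 3 tested receptor chains outside the members, the IL10 receptor chain gene Il10rb rose, with 306, 284 and 258 at involution day 1, against 84.1, 100.5 and 88.9 at lactation day 7 (1.63 ± 0.22, adjusted p = 1.9e-07). At day 4 the IL6 receptor gene Il6ra fell, with 47.0, 49.3 and 42.5 at involution day 4, against 176, 105 and 120.5 at lactation day 7 (-1.50 ± 0.49, adjusted p = 0.012). Of 15 tested JAK kinases and brakes, 1 was higher and 3 were lower at involution day 1. Over all tested probe sets 14.1% were called higher, 11.3% lower and 25.4% either way, so the count either way is close to the background. The phosphatase gene Ptpn2 rose (1.68 ± 0.33, adjusted p = 0.0001), and the brake Socs1 had 18.6, 8.7 and 13.2 at involution day 1, against 75.4, 41.6 and 40.8 at lactation day 7 (-1.93 ± 0.45, adjusted p = 0.00098), opposite to Socs3. The median of this list was -0.09, with -0.02 over all probe sets.

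Of 3 tested other STAT genes, 2 fell at involution day 1, where 11.3% of all tested probe sets did. Stat5b, which carries prolactin signals with Stat5a, had 11.4, 13.3 and 63.0 at involution day 1, against 84.6, 135 and 134 at lactation day 7 (-2.44 ± 0.54, adjusted p = 0.00065). Involution mouse C was above the other 2 mice and below the lactation mice. Of 4 tested C/EBP relatives and partners, Ddit3, a stress-induced C/EBP relative, rose (1.47 ± 0.34, adjusted p = 0.00095), and 1 fell, the stress-response factor Atf4 (-0.71 ± 0.24, adjusted p = 0.022), which was chosen after its values were seen. Cebpa, the C/EBP factor of fat cells, was not called at day 1 (-0.15 ± 0.26, adjusted p = 0.73), and rose by day 4 to 2009, 2004 and 1632, against 583, 598 and 682 at lactation day 7 (1.60 ± 0.26, adjusted p = 3.5e-06).

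Of 33 tested genes known as targets of STAT3 or C/EBP in mouse gland or liver, 11 rose and 4 fell at involution day 1, against a background of 14.1% higher and 11.3% lower, with a median log2 difference of 0.61 and -0.02 over all probe sets. The list was written with results of these data known and is not independent evidence of direction. Lrg1, which encodes a secreted glycoprotein, had 1375, 2758 and 2154 at involution day 1, against 184, 128 and 90.1 at lactation day 7 (3.97 ± 0.47, adjusted p = 8.5e-09). The acute phase gene Orm2 had 3401, 3756 and 3513 at involution day 1, against 294, 289 and 190.3 at lactation day 7, and 108, 87.2 and 143 at involution day 4 (-5.01 ± 0.56, adjusted p = 5.1e-09 for day 4 against day 1). Haptoglobin (Hp), another acute phase gene, was not called on day 1 and rose by day 2, with 241, 142 and 123 at involution day 1, 2447, 2629 and 659 at day 2 and 3603, 3235 and 4026 at day 4. At lactation day 7 it had 140.5, 132 and 119.5. On day 2 its difference from day 1 was 3.32 ± 0.39, adjusted p = 1.2e-07. On involution day 2, 16 of the 33 targets rose and 4 fell against lactation day 7, where 17.2% of all tested probe sets were called higher and 14.7% lower. On day 4, 17 rose and 5 fell, where 22.7% were called higher and 21.7% lower. At involution day 20, 14 of the 33 targets were lower and 2 higher than at day 4, where 8.54% of all tested probe sets were called lower and 6.99% higher, with a median of -0.64 and -0.02 over all probe sets.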

How the data were processed

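Single mammary glands of 54 mice were measured on 1-channel Affymetrix arrays. The deposited values are signal intensities that the authors made with MAS5, per the submitters' processing notes, with the version of MAS5 not given in the sources used. They are linear, and each array has a 2% trimmed mean of about 100.05 to 100.07, which is from the values and not from a note. Probe sets were named from the platform annotation: of 12422 probe sets that are not controls, 10833 have 1 symbol, 396 several and 1193 none. Before log2, lower signals were raised to 9.4, which is the 25th percentile of all values. Tests ran on the 8640 probe sets that exceeded 22.8 (the 40th percentile) in each of the 3 mice of some time point. Raw probe values and background were not used here, so dim signals have no measured background.

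All arrays entered 1 fit with a mean per time point in limma 3.58.1 (lmFit, contrasts, eBayes with an intensity trend), two-sided, with Benjamini-Hochberg adjustment over the 8640 probe sets and a call at an adjusted p under 0.05. The errors given with log2 differences are standard errors, and 3 mice a time point limit the precision. The fit was tested on simulated data for each of 10 comparisons. It called 37% to 53% of the 2-fold changes put in and 88% to 95% of the 4-fold changes. Of its calls, 1.52% to 7.01% were false. A member that was not called can therefore still have changed by 2-fold. Where all 3 mice of a group lay under the floor, the fold is a lower bound. The members, lists and comparisons were chosen with earlier results of these data known. All member probe sets are named, and of each pathway list up to 3 called genes with the largest difference, at most 8 in a comparison. Other genes are named where a result turns on them. Lists of neutrophil, T cell, B cell and basal markers were summed as well. At involution day 1 against lactation day 7, 0 of 4 T cell and 0 of 5 B cell genes and 2 of 5 basal genes were called. Alternatives were another floor, quantile normalization, scaling to 1 median, no filter, 1 probe set per gene, no intensity trend, array weights, a replicate block, the actin ratio as a covariate, fits of 6 arrays and leaving out each array. Promoter windows were taken from RefSeq on GRCm38.p6, and 6 of 7 members matched by gene ID. Correlations are descriptions across time points or arrays.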

Additional observations from a re-analysis of the deposited data

How the results depend on the processing

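Over 120 member differences and their alternatives, 1899 of 1990 values stayed on the same side of the threshold, 71 lost a call and 20 gained one. Of the differences called in the main fit, 0 changed sign. The sign changed in 56 values of 29 differences, none called. The rises of Osmr, Socs3 and Cebpd at involution day 1 against lactation day 7 kept their calls in all alternatives run, but the size for Socs3 162206_f_at was set by the floor: 4.26 with no floor but the lowest signal and 1.73 with the floor raised to the filter level, 22.8. With 1 probe set per gene the members called were 4 (involution day 1), 6 (day 2) and 6 (day 4) against lactation day 7, 4 for involution day 20 against day 4, 0 for lactation day 1, 3 for lactation day 7 against virgins and 7 over all time points, since fewer probe sets were counted. With array weights the calls were 3141 for involution day 4 against day 1 (5 members), 2191 for day 20 against day 4, 3103 for pregnancy day 14.5, 627 for day 20 against virgins and 1428 for day 2 against day 1 (4 members), and 1 member for lactation day 1. With only the 6 arrays they were 482 for day 20 against day 4 (4 members), 620 for lactation day 1 (0 members), 2578 for pregnancy day 14.5, 129 for day 20 against virgins and 305 for day 2 against day 1 (1 member). With no filter 1 member was called between involution days 4 and 1. Leaving out 1 array gave 1 to 2 members for day 4 against day 1, 667 to 1323 probe sets and 4 to 6 members for day 20 against day 4, 1061 to 2044 and 0 to 3 for lactation day 1, 890 to 1195 and 2 to 4 for pregnancy day 14.5, 135 to 235 for day 20 against virgins, and 259 to 624 for day 2 against day 1. The cause of these changes was not tested. A member count given here without its total over all probe sets has no background beside it and is not a result about the members. The letters A, B and C did not pair the mice: deviations of same-letter mice correlated at -0.195 to 0.057. With the letter as a replicate block, 2247 probe sets and 8 members were called at involution day 1, and 1 member call changed, Il6st 94345_at at lactation day 1 (-0.51, adjusted p = 0.045).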
